A study of Mus musculus with 2 samples.

Results

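Thioredoxin, its reductase and inhibitor, sulfiredoxin and peroxiredoxins 1 to 6 make up 10 genes of the 52550 that were counted in RAW264.7 cells. The members, Txn1, Txnrd1, Txnip, Srxn1 and Prdx1 to Prdx6, were taken by gene symbol after Ensembl identifiers had been matched to the GENCODE M21 annotation of mouse build mm10 (GRCm38), and all 10 were found. RAW264.7 is an established mouse macrophage line that was derived from a virus-induced tumour. The 2D group is 1 library of untreated RAW264.7 cells from 2D culture, and the 3D group is 1 library of untreated cells of the same line from 3D culture. Both share the line, the absence of treatment and the poly(A)-selecting stranded library kit. The sources used here do not give the 3D matrix or device, the medium or the days in culture. With 1 library per culture method no difference has a replicate check, no p-value was computed, and each comparison sets 1 library against another.

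Thioredoxin is a small protein with a pair of cysteines that reduces disulfide bonds in other proteins. Thioredoxin reductase, a selenoprotein, restores it with electrons from NADPH, and Txnip binds reduced thioredoxin and blocks it. Peroxiredoxins destroy hydrogen peroxide through a reactive cysteine, and most are then reduced by thioredoxin. A strong peroxide load can over-oxidise that cysteine in several peroxiredoxins, and sulfiredoxin reverses this step. In macrophages the system limits the peroxide that follows the oxidative burst, and several of its genes are known targets of the antioxidant transcription factor NRF2.

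The libraries held 14371084 counts (2D) and 16652503 counts (3D). Levels are given as counts per 1000000 counts after TMM scaling (CPM), which corrects for library make-up, and a difference is a ratio, the 3D level divided by the 2D level, with an exact 95% interval. These intervals cover counting error only and treat reads as independent, which reads without molecular identifiers are not. Genes with a mean level of at least 1 CPM, 11673 in number and all 10 members among them, are called measured. All 11 macrophage markers (Ptprc, Csf1r, Adgre1, Cd68, Itgam, Lyz2, Cd14, Fcgr1, Spi1, Mertk and Cebpa) had counts in both libraries, with summed levels of 3280 CPM in 2D and 9497 CPM in 3D, most of it from Lyz2 and Cd68. Of these markers 6 were past 2-fold higher and 1 lower (Ptprc, 2.72-fold), and Itgam and Fcgr1 had ratios of 0.731 and 0.687. For comparison, 18.7% of measured genes were up and 20.8% down by that factor. Log2 ratios were also adjusted for GC content, transcript length and mean expression, as described below. On that scale Adgre1, Mertk and Cebpa passed 2-fold upward and no marker downward. Of the 6, Cebpa alone stayed past it, with Lyz2 at 0.22 and Cd68 at 0.06. The marker median went from 1.39 to 0.29. Of 12 hepatocyte markers, 8 were at 0 in 2D and 1 in 3D, and they summed to 1.19 and 26.2 CPM. Alb, with 8 and 232 counts, held most of them in 3D. The part of that RNA in the results below was not tested, and in bulk RNA fewer cells of a type and less RNA per cell cannot be told apart. For 9 erythroid markers the sums were 3.84 and 4.21 CPM, most of it from Epor (55 and 43 counts). The globin genes Hba-a2 and Hbb-bt were at 0 in both libraries. Hba-a1 (0 and 2 counts) and Hbb-bs (0 and 1) had counts in 3D only. Lists for fibroblasts, epithelium and lymphocytes summed to at most 2.07 CPM in either library.

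Sulfiredoxin and 3 peroxiredoxins stood 2-fold or more above their 2D level in 3D culture, thioredoxin, its reductase and Prdx1 were near equal, and Txnip was lower. The 4 genes past 2-fold were Prdx5 (3.23-fold), Srxn1 (2.79-fold), Prdx2 (2.66-fold) and Prdx4 (2.08-fold). No member was lower by that factor. Among all measured genes, 18.7% were higher by 2-fold or more and 20.8% lower, which makes 39.5% in either direction. The median log2 ratio of the members was 0.55, against 0.05 for all measured genes, and 7 of the 10 members lay above that all-gene median. Under scaling to total counts, every log2 ratio dropped by 0.60. The call then remained for Prdx5 of the 4 genes, Txnip passed 2-fold lower, and the member median became -0.047, beside 5.59% of genes higher by 2-fold or more and 36.5% lower. With 22 reference genes as the base, the shift was -0.37, and 3 members (Prdx5, Srxn1 and Prdx2) passed 2-fold higher and 1, Txnip, lower, beside 9.47% and 29.3% of genes. Medians of all measured genes moved with these shifts, to -0.55 and -0.31.

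**Figure D1:**
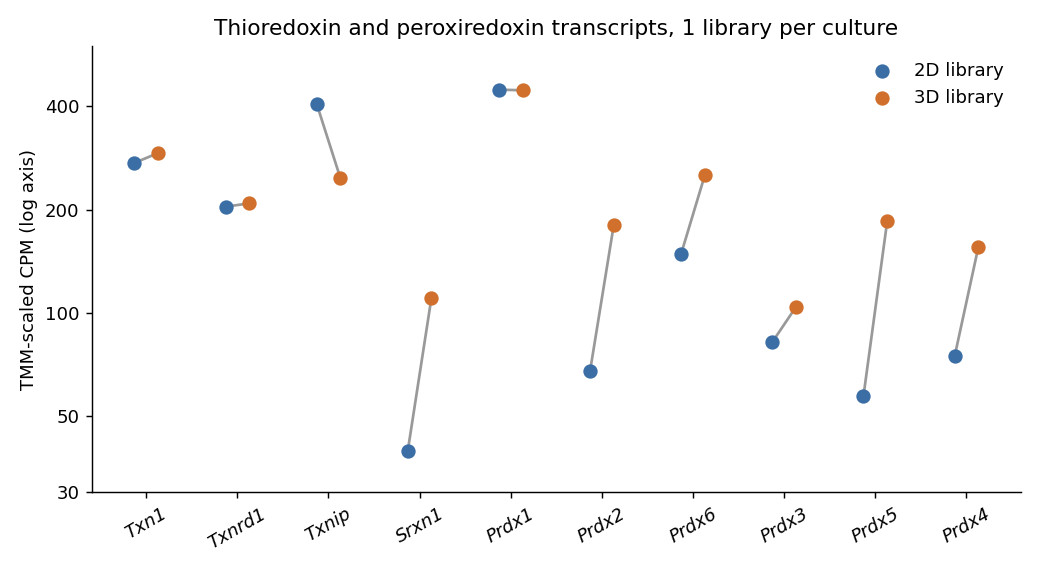
Level of each gene in the 2D library (blue) and the 3D library (orange), in TMM-scaled CPM on a log axis; a grey line joins the 2 libraries and there is 1 library per culture. Srxn1, Prdx2, Prdx4 and Prdx5 stand at least 2-fold higher in 3D, Txn1, Txnrd1 and Prdx1 lie nearly level, and Txnip stands lower.

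Promoter sequence is shown for the 3 members whose window held an antioxidant response element, the DNA letters that NRF2 binds, and for Txnip, whose window held the paired boxes through which glucose sensing factors act. Windows of 300 bases, 250 before the start and 50 from it on, were taken from RefSeq (build GRCm38.p6). They were available for 9 members in 11 windows; Prdx6 had none. Each stretch is printed 5′ to 3′ on the strand of the gene, ends 1 base before the start, and has capitals where an antioxidant or AP-1 motif matched, or, for Txnip, the glucose response motif. The stretches are chr2:152105354-152105523 for Srxn1, chr10:82859096-82859205 for Txnrd1, chr4:116685449-116685598 for Prdx1 and chr3:96557807-96557956 for Txnip, all on the plus strand.
Srxn1: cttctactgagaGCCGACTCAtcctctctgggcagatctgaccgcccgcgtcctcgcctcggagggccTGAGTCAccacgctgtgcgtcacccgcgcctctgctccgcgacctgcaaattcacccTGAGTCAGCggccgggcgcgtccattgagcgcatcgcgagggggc
Txnrd1: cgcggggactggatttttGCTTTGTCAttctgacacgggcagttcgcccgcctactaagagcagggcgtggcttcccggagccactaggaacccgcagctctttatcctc
Prdx1: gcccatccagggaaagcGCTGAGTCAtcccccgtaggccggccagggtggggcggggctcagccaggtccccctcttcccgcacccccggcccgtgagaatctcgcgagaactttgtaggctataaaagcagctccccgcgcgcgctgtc
Txnip: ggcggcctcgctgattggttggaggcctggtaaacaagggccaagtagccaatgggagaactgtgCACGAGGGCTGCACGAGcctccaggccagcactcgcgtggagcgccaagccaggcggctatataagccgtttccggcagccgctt

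Both strands were searched for 6 motifs. The antioxidant response element was searched as TGACNNNGC and TGAGNNNGC, where N is any base, and the AP-1 site as TGAGTCA, whose letters can overlap the former. Either antioxidant form was present in 27.8% of 32851 promoter windows, with TGACNNNGC in 12.4%, TGAGNNNGC in 17.6%, and TGAGTCA was in 5.2%. In the Srxn1 stretch, matches began 158, 102 and 45 bases before the start, an antioxidant match, an AP-1 match and a match to both at once. In the printed stretch Prdx1 had an antioxidant match on the minus strand 133 bases before its start, with an AP-1 match inside it, and Txnrd1 a match 92 bases before the start of 1 of its 3 windows. Outside the printed stretches, the Prdx1 window held an AP-1 match 237 bases before the start and an antioxidant match 15 bases after it, and the Srxn1 window an antioxidant match 28 bases after the start. Of these 3 genes, Srxn1 passed 2-fold higher in 3D, and Txnrd1 and Prdx1 did not. The carbohydrate response element, a pair of E-box-like sequences at a fixed spacing, was in 16 of the windows (0.0487%) and lay 85 bases before the Txnip start. Also searched were ACGTG, the core of the hypoxia response element (19.6% of windows), and CCAAT (37.4%). The Prdx4 window held both, CCAAT starting 128 bases and ACGTG 51 bases before the start, and Txnip and Txnrd1 windows held CCAAT. Windows of Txn1, Prdx2, Prdx3 and Prdx5 held none of the 6 motifs. A match is a stretch of letters and no measure of binding, and its absence says nothing of a factor.

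Txn1, which encodes the cytosolic thioredoxin (ENSMUSG00000028367, chromosome 4, 57943373 to 57956411, minus strand), had 4839 counts in 2D culture against 3955 in 3D culture. Its level was 274 CPM in 2D and 292 CPM in 3D, a ratio of 1.07 (95% interval 1.02 to 1.11). The levels lay close together, and the direction turned under total counts, where Txn1 stood at 337 and 238 counts per 1000000. Txnrd1, the cytosolic thioredoxin reductase (ENSMUSG00000020250, chromosome 10, 82833951 to 82897712, plus strand), had 3607 and 2822 counts, or 204 CPM in 2D and 209 CPM in 3D. Its ratio of 1.02 (0.973 to 1.07) held 1 within the interval. The count of Txn1 relative to Txnrd1, which needs no scaling of the libraries, was 1.34 in 2D and 1.40 in 3D, a ratio between them of 1.05 (0.979 to 1.12). The interval of that proportion held 1.

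Txnip encodes the thioredoxin-interacting protein, an alpha-arrestin that also limits glucose uptake (ENSMUSG00000038393, chromosome 3, 96557957 to 96561883, plus strand). It had 7200 counts in 2D and 3347 in 3D, or 407 and 247 CPM. This was 1.65-fold lower in 3D (1.58 to 1.72), the lowest ratio of the 10 genes, and 27.1% of measured genes had a ratio at or below it. Relative to Txn1, Txnip counted 1.76-fold less in 3D (1.66 to 1.87). The Txnip count exceeded that of Txn1 in 2D and lay under it in 3D. An antisense gene, Gm15441, shares 19.4% of Txnip's exon bases and had 25 and 10 counts. Txnip was lower in 3D under every scaling run, with a log2 ratio from -0.70 under the size factors of DESeq2 to -1.32 under total counts, and at -1.16 after the adjustment for transcript composition described below.

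Srxn1, which encodes sulfiredoxin (ENSMUSG00000032802, chromosome 2, 152105516 to 152111376, plus strand), had 701 counts in 2D and 1499 in 3D. Its level was 39.6 CPM in 2D and 111 CPM in 3D, a ratio of 2.79 (2.55 to 3.06), higher than or equal to that of 92.4% of measured genes. By CPM it was the lowest member in 2D, and in 3D only Prdx3 of the members was lower. The Srxn1 count relative to that of Txnrd1 was 2.73-fold higher in 3D (2.46 to 3.03), relative to Prdx1 2.81-fold (2.55 to 3.09) and relative to Txnip 4.60-fold (4.16 to 5.08).

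**Figure D2:**
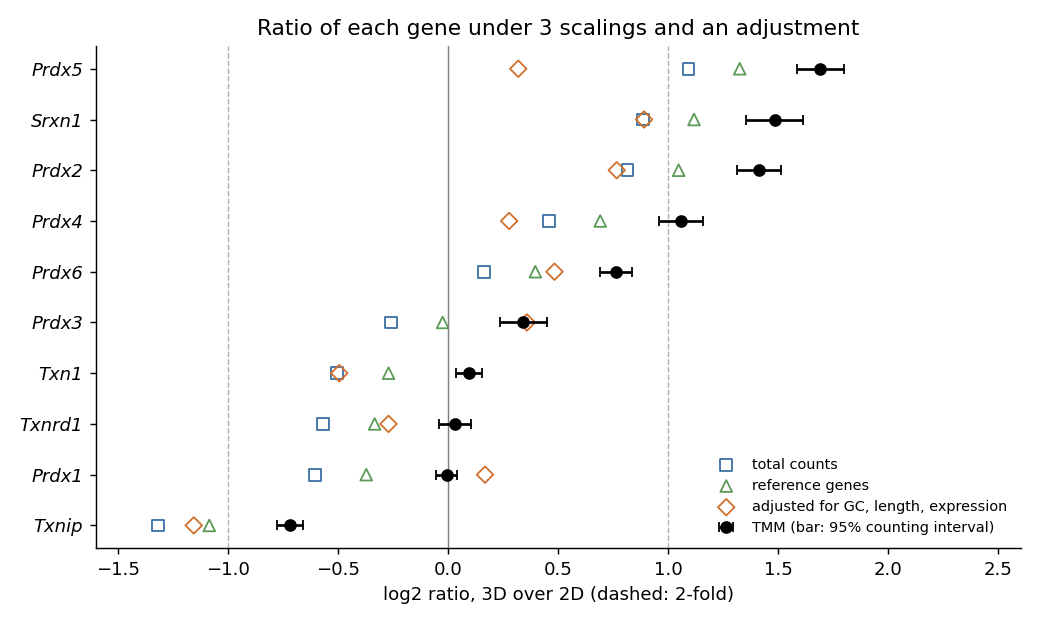
Log2 ratio of CPM, 3D over 2D, for each gene: black points are TMM values with 95% counting intervals, open squares total counts, triangles reference gene scaling and diamonds the TMM value adjusted for GC content, transcript length and mean expression. Dashed lines mark 2-fold; Prdx5 stays past it under total counts, no gene is past it on the higher side after adjustment, and Txnip lies below 0 throughout.

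Prdx1, Prdx2 and Prdx6 are the peroxiredoxins of the cytosol, and their ratios differed. Prdx1 (ENSMUSG00000028691, chromosome 4, 116685544 to 116700822, plus strand) had 7912 counts in 2D and 6029 in 3D. At 447 and 446 CPM its ratio was 0.996 (0.963 to 1.03), and its CPM was the highest of the members in both libraries. Prdx2 (ENSMUSG00000005161, chromosome 8, 84969587 to 84974834, plus strand), abundant in red blood cells, had 1197 and 2439 counts. Its 67.7 CPM in 2D and 180 CPM in 3D gave a ratio of 2.66 (2.48 to 2.86). Relative to Prdx1, Prdx2 counted 2.67-fold more in 3D (2.48 to 2.89). Prdx6, which uses a single catalytic cysteine and also has phospholipase activity (ENSMUSG00000026701, chromosome 1, 161240112 to 161251219, minus strand), had 2632 and 3415 counts. Its 149 and 252 CPM gave a ratio of 1.70 (1.61 to 1.78), under 2-fold.

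The mitochondrial peroxiredoxins also stood apart from each other. Prdx3 (ENSMUSG00000024997, chromosome 19, 60864051 to 60874556, minus strand), a mitochondrial protein, had 1454 counts in 2D and 1409 in 3D. Its 82.2 and 104 CPM gave a ratio of 1.27 (1.18 to 1.36), and with total counts or reference genes as the base its log2 ratio was -0.26 or -0.02. Prdx5 (ENSMUSG00000024953, chromosome 19, 6906697 to 6910106, minus strand), found in mitochondria, peroxisomes and the cytosol, had 1012 and 2499 counts. At 57.2 and 185 CPM it had the highest ratio of the members, 3.23 (3.00 to 3.48), and 95.4% of measured genes had a ratio at or below it. Relative to Prdx3, Prdx5 counted 2.55-fold more in 3D (2.30 to 2.83). Prdx4 (ENSMUSG00000025289, chromosome X, 155323918 to 155340754, minus strand), the secretory pathway member that supports disulfide formation in the endoplasmic reticulum, had 1320 and 2101 counts. Its 74.6 and 155 CPM gave a ratio of 2.08 (1.94 to 2.23), so its interval reached below 2.

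Ranked by ratio, Prdx5, Srxn1 and Prdx2 came first, and the intervals of neighbours in this order overlapped. As count proportions, Prdx5 still counted 1.15-fold more in 3D relative to Srxn1 (1.03 to 1.30) and 1.21-fold more relative to Prdx2 (1.09 to 1.34). Prdx4, Prdx6 and Prdx3 followed, each separated from its neighbours. Txn1, Txnrd1 and Prdx1 came next with overlapping neighbouring intervals, and Txnip was separated below them. Of the 45 pairs of members, 20 differed in their count proportion by 2-fold or more between the libraries. The share of such pairs among all measured genes was not computed, so the 20 cannot be read as particular to the members. Taken singly, 39.5% of measured genes passed 2-fold in either direction. The interval of the pair held 1 for 3 pairs (Srxn1 with Prdx2, Txn1 with Txnrd1, and Txnrd1 with Prdx1).

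Summed over Prdx1 to Prdx6, the peroxiredoxin level depended on the scaling, and its make-up by gene differed between the libraries. On the TMM scale the sum was 878 CPM in 2D and 1322 CPM in 3D, a ratio of 1.51 (1.47 to 1.54), and against the reference genes the ratio was 1.17 (1.14 to 1.19). As a share of total counts the sums were near equal. In 2D they held 15527 counts, 0.108% of the library (0.106% to 0.110%, Wilson 95%). In 3D they held 17892 counts, 0.107% (0.106% to 0.109%). Prdx1 made up 51.0% of these counts in 2D (50.2% to 51.7%) and 33.7% in 3D (33.0% to 34.4%). The share of Prdx5 was 6.52% (6.14% to 6.92%) in 2D and 14.0% (13.5% to 14.5%) in 3D. For Prdx2 it was 7.71% (7.30% to 8.14%) and 13.6% (13.1% to 14.1%), and for Prdx4 8.50% and 11.7%. Prdx6 held 17.0% and 19.1%, and Prdx3 9.36% and 7.88%. No scaling of the libraries enters the shares of the peroxiredoxin counts, in which longer transcripts weigh more.

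**Figure D3:**
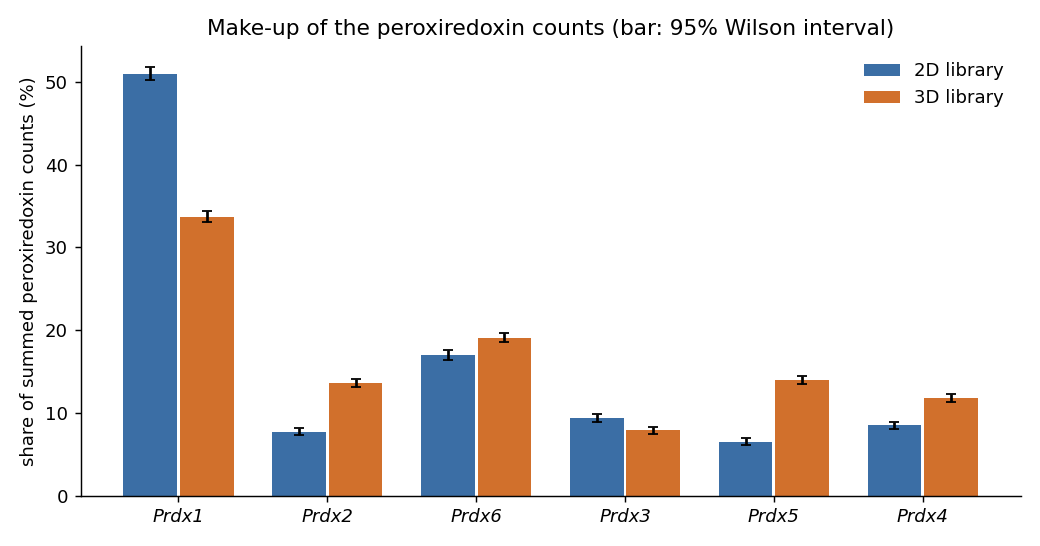
Share of the summed peroxiredoxin counts taken by each gene in the 2D library (blue) and the 3D library (orange), in percent; error bars are 95% Wilson intervals for counting error. Prdx1 goes from 51.0% in 2D to 33.7% in 3D, while Prdx2, Prdx4 and Prdx5 take larger shares in 3D.

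Levels of different genes were compared per kilobase (1000 bases) of principal transcript, in CPM per kilobase. In the 2D library Txn1 led with 260, followed by Prdx1 with 195, Txnip with 146, Prdx4 with 75.4, Prdx6 with 62.3 and Txnrd1 with 61.3. Prdx3 with 55.6, Prdx5 with 45.3, Prdx2 with 45.1 and Srxn1 with 14.1 came last. Prdx6 with Txnrd1, and Prdx5 with Prdx2, did not differ beyond their 95% Poisson intervals. In the 3D library Txn1 (278) and Prdx1 (194) led again, now followed by Prdx4 (157), Prdx5 (146), Prdx2 (120) and Prdx6 (106). Txnip (88.5), Prdx3 (70.5), Txnrd1 (62.7) and Srxn1 (39.4) came last, and the interval of Prdx4 overlapped that of Prdx5. On these lengths Txnip was the third in 2D and the seventh in 3D. The annotation also gives Prdx1 a principal transcript of 877 bases beside the 2294 used, and on that length Prdx1 would stand at 510 and 508 CPM per kilobase and lead in both libraries. On the shortest principal transcripts of Txnrd1 (2297 bases) and Prdx2 (1175 bases), Txnrd1 would stand at 90.8 in 3D, above Txnip, and Prdx2 at 153, above Prdx5. Against the 10538 measured protein-coding genes, Txn1 ranked at percentile 98.4 in 2D and 97.0 in 3D, and Srxn1 at 58.1 and 79.4.

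The ratio followed transcript GC content across all genes, and the members with the highest ratios had higher GC content than those with the lowest. Principal transcripts of the members ran from 42.3% GC (Prdx1) to 58.3% (Prdx5), with Srxn1 at 53.3%, Prdx4 at 50.5%, Prdx2 at 50.4%, Txnrd1 at 48.9% and Txnip at 48.5%. The value of Prdx1 is that of its principal transcript of 2294 bases, and the one of 877 bases was not used. Txnrd1 and Prdx2 also have several principal transcripts. The correlation over members, the GC bins and the adjusted ratios of these genes rest on the transcript chosen. Over the members, Pearson's r between GC content and log2 ratio was 0.71 (n = 10 genes from the same libraries), and over the 10538 protein-coding genes it was 0.60. In each of 10 GC bins of protein-coding genes, members were set beside the bin median. Prdx5, with a log2 ratio of 1.69, lay in the bin of highest GC content, whose median was 0.98 and where 49.1% of genes were at least 2-fold higher. Srxn1 (1.48) lay in a bin with a median of 0.45 and Prdx2 (1.41) and Prdx4 (1.06) in one with 0.31. Prdx1, at -0.01, lay above its bin median of -0.82. In all, 8 members were above the median of their bin, Txnrd1 lay on it (0.03), and Txnip (-0.72) lay below it (-0.23).

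**Figure D4:**
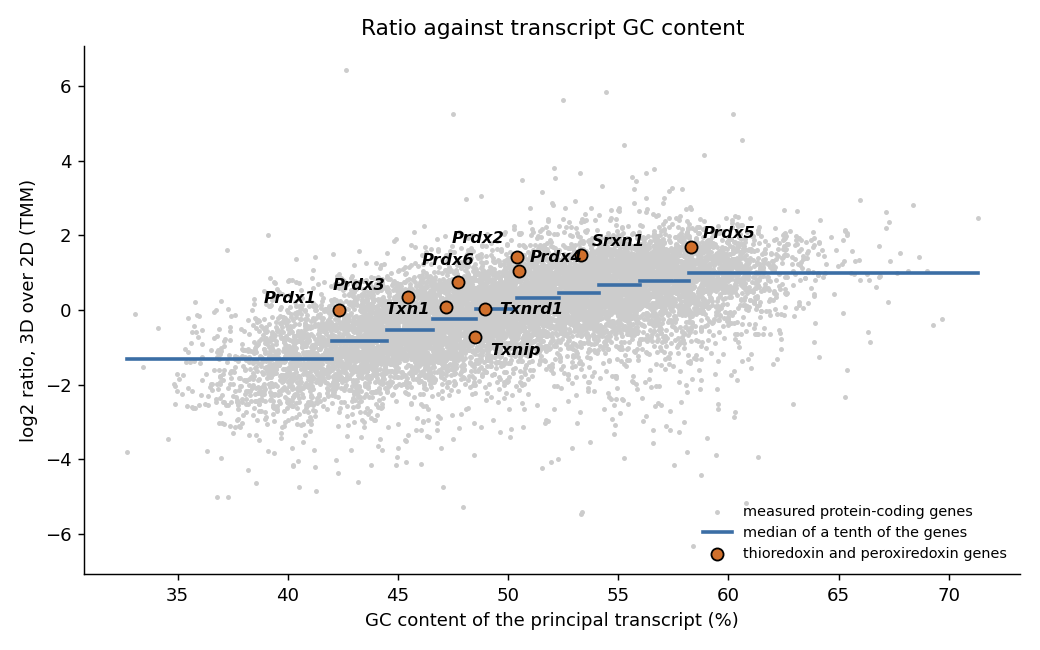
Log2 ratio (3D over 2D, TMM) against GC content of the principal transcript for 10538 measured protein-coding genes (grey), the median in each of 10 GC bins (blue bars) and the 10 thioredoxin and peroxiredoxin genes (orange). The bin median climbs from -1.32 to 0.98; Txnip lies below its bin median and 8 of the genes above theirs.

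After adjustment of the log2 ratio for GC content, transcript length and mean expression together, none of the members passed 2-fold higher, beside 9.89% of all genes, and Txnip (-1.16) passed 2-fold lower, beside 9.28%. Together these properties took up 46.1% of the spread (variance) of log2 ratios, so biology that tracks them is removed as well. Adjusted log2 ratios were 0.89 for Srxn1, 0.77 for Prdx2, 0.48 for Prdx6, 0.36 for Prdx3, 0.32 for Prdx5, 0.28 for Prdx4 and 0.17 for Prdx1. These 7 genes, all 6 peroxiredoxins and sulfiredoxin, lay above the all-gene median of 0.05, while Txnrd1 (-0.27), Txn1 (-0.49) and Txnip lay below it. Prdx5, highest before the adjustment, then came behind Srxn1, Prdx2, Prdx6 and Prdx3.

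Reads could be shared between some members and other annotated genes. Exons of Trmt112, on the opposite strand, share 19.1% of the exon bases of Prdx5, and Trmt112 had 678 and 1356 counts, a ratio of 2.61. Rnaseh2a and Junb, both opposite to Prdx2, share 5.80% and 5.67% of its exon bases and had ratios of 1.93 and 3.03. Gm15441, opposite to Txnip, shares 19.4% of its exon bases and had 25 and 10 counts. The kit marks the strand, but no source used here says whether the counting used it. Counts of Prdx5, Prdx2 and Txnip are therefore uncertain by reads from these overlaps. Annotated processed copies with at least 85% identity were found for Txn1, Prdx1, Prdx2 and Prdx6. The most counts were in Gm21399, a copy of Prdx1, with 60 and 44, and adding all copies to their parent genes left the 4 calls in place.

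The mitochondrial thioredoxin and its reductase had higher ratios than their cytosolic counterparts, Txn1 and Txnrd1. Txn2, the mitochondrial thioredoxin, stood at 75.7 CPM in 2D and 168 CPM in 3D, a ratio of 2.22 (2.07 to 2.37), and Txnrd2, its reductase, at 28.2 and 55.9 CPM, a ratio of 1.98 (1.77 to 2.23). The count of Txn1 relative to Txn2 was 2.07-fold lower in 3D (1.91 to 2.25), and that of Txnrd1 relative to Txnrd2 1.94-fold lower (1.71 to 2.20). These 2 genes belong to a list of 18 mitochondrial and other thioredoxin-fold genes, of which 3 passed 2-fold higher and 2 lower, with a median log2 ratio of 0.27. The others past 2-fold were Txnl4a, a spliceosome protein (3.32-fold higher), the nucleoredoxin gene Nxn (3.18-fold higher), and the transmembrane disulfide isomerase genes Tmx3 (3.31-fold lower) and Tmx4 (2.29-fold lower). Adjusted log2 ratios were 0.29 for Txn2, 0.20 for Txnrd2, 1.96 for Txnl4a, 1.16 for Nxn, 0.09 for Tmx3 and -0.04 for Tmx4, so neither Tmx gene nor Txn2 was past 2-fold on that scale. Over the whole list 3 genes were past 2-fold higher after adjustment, Txnl4a and Nxn among them, and 0 lower. All 4 glutaredoxin genes had ratios above 1, with Glrx3 at 2.47 and Glrx5 at 2.15 past 2-fold, although with total counts as the base the ratio of Glrx2 was 0.798. Among 5 measured reductases that draw on thioredoxin, the methionine sulfoxide reductase genes Msra (2.96-fold) and Msrb1 (2.57-fold) were higher, the ribonucleotide reductase genes Rrm1 (ratio 1.18) and Rrm2 (ratio 0.986) were near equal, and Rrm2b was 3.19-fold lower. Adjusted log2 ratios of Glrx5 (0.39) and Msrb1 (0.47) were within 2-fold, as was that of Rrm2b. Msra (1.35) and, narrowly, Glrx3 (1.005) stayed past 2-fold higher, and Glrx2 (1.18) was past it only after adjustment.

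Relatives of Txnip and the sensors that drive it lay within 2-fold on the TMM scale. Of 6 measured genes of this list 0 passed 2-fold in either direction, and the median log2 ratio was -0.11. Arrdc4, the alpha-arrestin that shares its glucose control with Txnip, had 314 and 207 counts and a ratio of 0.862 (0.719 to 1.03). Mlxip, which encodes the glucose-sensing factor MondoA, stood at 70.0 and 49.1 CPM, a ratio of 0.702 (0.638 to 0.772), and its partner Mlx at a ratio of 1.49. Arrdc2 was lowest at 0.541. With total counts as the base Arrdc2 (0.357) and Mlxip (0.464) passed 2-fold lower, and after adjustment Arrdc3 (1.67) was past 2-fold higher and Arrdc2 (-1.50) past 2-fold lower. Mlxipl, the gene of the related sensor ChREBP, had 0 and 6 counts and was not measured.

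Genes that make peroxide, or remove it by other routes, had medians above that of all genes before the adjustment. Of 7 NADPH oxidase genes, 4 passed 2-fold higher, Cyba (4.24-fold) and Rac2 (2.40-fold) among them, and none lower, and the median log2 ratio was 1.23. Of 5 measured peroxide and superoxide enzymes, Gpx4 (3.55-fold), Sod1 (2.93-fold) and Gpx1 (2.01-fold) were higher, Sod2 (ratio 1.58) and catalase Cat (ratio 1.48) were between, and the median was 1.01. After adjustment the medians of these lists were 0.20 and 0.13, near the 0.05 of all genes, and Gpx4 (0.13), Sod1 (0.06), Gpx1 (-0.59), Cyba (0.12) and Rac2 (0.20) were within 2-fold. Among 7 measured NADPH-making enzymes, Pgd (3.80-fold), G6pdx (3.21-fold) and Me1 (2.38-fold) were higher and none lower, with a median of 0.48 before and 0.67 after adjustment, when 0 of the 7 passed 2-fold. Under total counts the numbers past 2-fold over all 72 measured genes of these related lists went from 22 higher and 5 lower to 7 higher and 13 lower. Over all measured genes the shares went from 18.7% higher and 20.8% lower to 5.59% and 36.5%.

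Regulators and assembly factors lay on both sides of a ratio of 1. Of 7 selenoprotein synthesis genes, which Txnrd1 needs for its selenocysteine, Eefsec was 2.23-fold higher (adjusted log2 ratio 0.43), none passed 2-fold lower, and Sephs2, a selenophosphate synthetase, had a ratio of 0.745. In the NRF2 list, Nfe2l2, the gene of NRF2 itself, stood at 142 and 125 CPM, a ratio of 0.881 (0.828 to 0.937). Its inhibitor Keap1 was 2.05-fold higher, and Rbx1 (2.01-fold) and Maff (2.24-fold) were also past 2-fold. The repressor gene Bach1 was 2.55-fold lower and the ubiquitin ligase scaffold gene Cul3 2.17-fold lower, so 3 of 8 were higher and 2 lower, with a median of 0.04. Adjusted log2 ratios of Keap1 (0.30), Rbx1 (0.95), Maff (0.49), Bach1 (-0.53) and Cul3 (0.25) were within 2-fold, and that of Mafg, a small Maf partner gene, was -1.50. Among 5 measured genes for other partners of peroxiredoxins, the redox chaperone gene Park7 was 2.34-fold higher (adjusted log2 ratio -0.34), the stress kinase gene Map3k5, whose product thioredoxin binds, had a ratio of 0.802, and the sestrin genes Sesn1 and Sesn2 had ratios of 0.533 and 1.30.

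**Figure D5:**
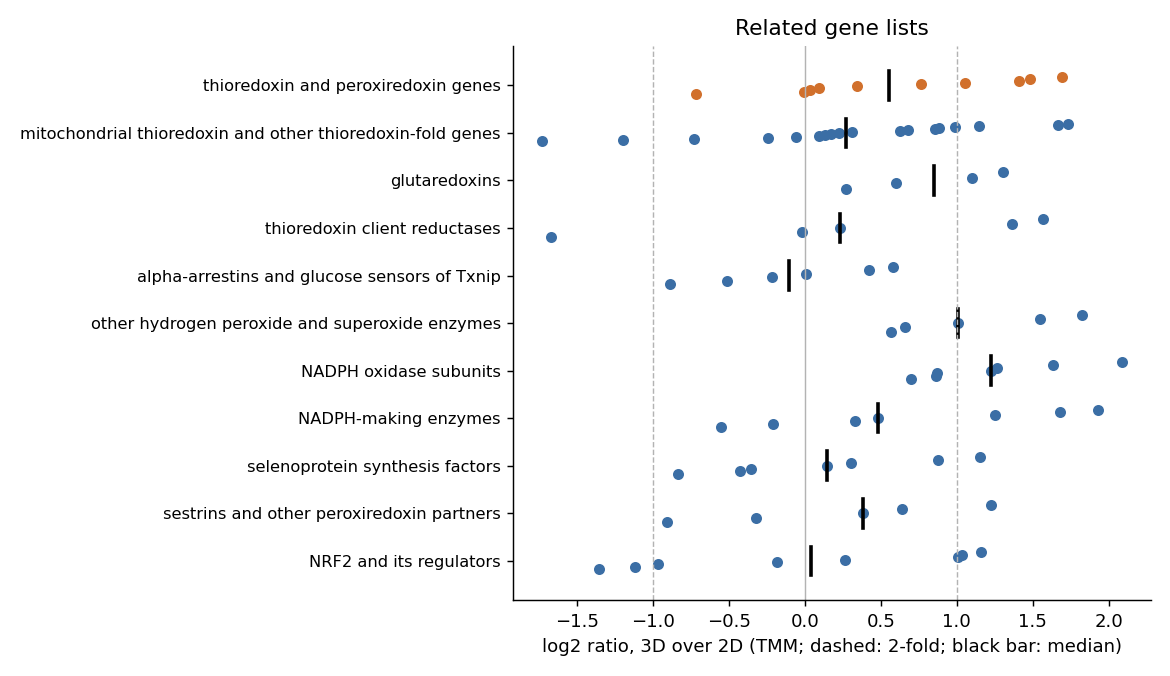
Log2 ratio (3D over 2D, TMM) of every measured gene in 10 related lists (blue) and of the 10 thioredoxin and peroxiredoxin genes (orange), with the median of each list as a black bar and 2-fold as dashed lines. The thioredoxin and peroxiredoxin genes have a median of 0.55, the NADPH oxidase list 1.23 and the list of Txnip relatives -0.11.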

How the data were processed

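Total RNA of untreated RAW264.7 cells was extracted with TRIzol and sequenced after a TruSeq stranded mRNA preparation, per the labels' protocols. The deposited values are raw counts of reads per Ensembl gene, made by the authors with Trimmomatic, HISAT2 and HTSeq against mm10, as the submitters' processing notes list them. No source used here gives tool versions, options, the strand setting or the annotation behind the counts. Of 52550 identifiers, 52403 (99.7%) matched GENCODE M21.

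Counts were scaled with TMM factors of edgeR 4.0.16 (1.231 for 2D, 0.813 for 3D) in R 4.3.3. Ratios have exact Clopper-Pearson 95% counting intervals, and pairs of genes exact conditional ones (scipy 1.17.1). Zero counts took a floor of 3 counts, equal to 0.209 (2D) and 0.180 (3D) counts per 1000000; no member needed it. GC content and length came from the best-ranked APPRIS principal transcript, a choice made after exon-union lengths were seen to include retained introns, and log2 ratios were adjusted with spline terms (natural cubic, 4 degrees of freedom each, patsy 1.0.2), with values for 99.9% of measured genes. Processed copies were found with blastn 2.17.0. The code was tested on simulated counts.

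The members, the 10 related lists and the 6 marker lists were chosen with earlier results of these data known. All members are named. Of each related list, up to 5 measured genes with the largest and up to 5 with the smallest log2 ratio could be named, and every gene of a list of 8 or fewer. Overlapping genes and processed copies are named for their position or likeness.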

Additional observations from a re-analysis of the deposited data

How the results depend on the processing

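No paired analysis was possible because each culture method has 1 library, and no library could be left out. The number of members at least 2-fold higher (4) and lower (0), and their median log2 ratio, stayed at 4, 0 and between 0.51 and 0.57 with DESeq2 1.42.0 size factors, upper quartiles, a filter of 5 CPM or none, 1 CPM added, both libraries thinned to 0.5 of the smaller total, or processed copies added. With protein-coding genes only, or with the bound of the interval nearest to 1, 3 were higher, Prdx4 being lost. Genes near a ratio of 1 changed sign between scalings: Prdx1 was at 0.02 with DESeq2 size factors and Txnrd1 at -0.03 with protein-coding genes only. Total counts gave 1 higher, 1 lower and a median of -0.047; reference genes gave 1 lower and a median of 0.19; the adjustment gave 0 higher, 1 lower and a median of 0.30. A threshold of 1.5-fold gave 5 higher and 1 lower, beside 3701 and 3552 of all measured genes, and one of 4-fold gave 0 higher and 0 lower, beside 260 and 779. Over the related lists, total counts gave 7 higher and 13 lower, beside 5.59% and 36.5% of all measured genes. The reference genes gave 9 higher and 10 lower there, beside 9.47% and 29.3%. Under TMM scaling the numbers were 22 and 5, beside 18.7% and 20.8%. These shifts follow from the scaling factors and thresholds themselves; the cause of the shift under adjustment was not tested. Thinning left the Txnip to Txn1 log2 ratio at -0.78 against -0.81, a comparison added after seeing the data. With 701 counts or more per member and library, counting intervals are narrow, and the spread between libraries of one culture method is unknown.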
